A study of Homo sapiens with 4 samples.

Results

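SREBF1 and 9 genes of fatty acid synthesis, desaturation and activation were followed in cisplatin-resistant and parental CAL-27 cells. The 10 genes were SREBF1, FASN, ACACA, ACLY, SCD, ELOVL6, FADS1, FADS2, FADS3 and ACSL3, taken by gene symbol from the array's platform annotation. Of these, 8 genes had a named row among the 42152 rows of the array, and 10 rows in all. Platform symbols named 9 of the rows, and the row of ACSL3 was named through its RefSeq accession. ACLY and SCD had no named row and were not analysed here. The resistant group was a CAL-27 derivative (an established human tongue squamous cell carcinoma line) selected under cisplatin, a platinum drug that crosslinks DNA, with doses stepped up between 1e-07 M and 1e-05 M. The parental group was unselected CAL-27, and both were grown in DMEM with fetal bovine serum. Whether the derivative was a clone or a pool, and whether the drug was present at harvest, was not given in the sources used here. Each group had 2 one-colour arrays described as biological replicates. Nothing states that these came from separate cultures, so the spread between arrays that enters the p-values may be technical. The p-values may then not carry over to new cultures. Over all rows the log2 values of the 2 resistant arrays correlated at r = 0.946 and those of the 2 parental arrays at 0.921, against 0.890 to 0.906 between groups.

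SREBF1 encodes the SREBP-1 transcription factors, which are made as precursors held in the endoplasmic reticulum membrane. INSIG proteins retain the precursor, SCAP escorts it to the Golgi, and proteases there release a fragment that enters the nucleus and activates genes of fatty acid synthesis. In that pathway ACLY makes cytosolic acetyl-CoA from citrate, ACACA carboxylates it to malonyl-CoA, and FASN builds palmitate, which ELOVL6 lengthens and SCD desaturates. Carcinoma cells often make fatty acids themselves although they can also take them up from serum.

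Promoter windows of SREBF1, ACACA and FADS1 are shown because these 3 genes, with FASN, stood furthest apart between the groups. Each window holds 300 bases, mostly upstream of an annotated start, from RefSeq on GRCh38.p14, read 5′ to 3′ on the gene's own strand, here the minus strand. Capitals mark the GC box GGGCGG, which Sp1 binds, and the NF-Y box CCAAT, each on either strand. They lie at chr17:17836937-17837236 (SREBF1), chr17:37299718-37300017, chr17:37359047-37359346 and chr17:37406787-37407086 (ACACA windows 1 to 3, for 3 alternative starts) and chr11:61816954-61817253 (FADS1).
SREBF1: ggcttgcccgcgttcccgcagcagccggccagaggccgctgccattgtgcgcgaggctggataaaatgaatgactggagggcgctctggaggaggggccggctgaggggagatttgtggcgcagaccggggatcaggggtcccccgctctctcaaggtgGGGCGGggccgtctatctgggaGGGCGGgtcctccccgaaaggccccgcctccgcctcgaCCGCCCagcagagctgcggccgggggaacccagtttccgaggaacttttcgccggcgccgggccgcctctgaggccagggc
ACACA window 1: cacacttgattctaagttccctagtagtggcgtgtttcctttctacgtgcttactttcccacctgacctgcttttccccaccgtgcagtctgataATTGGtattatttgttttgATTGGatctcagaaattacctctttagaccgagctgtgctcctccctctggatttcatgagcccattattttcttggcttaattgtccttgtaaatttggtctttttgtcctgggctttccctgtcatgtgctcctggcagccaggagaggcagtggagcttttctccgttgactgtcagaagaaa
ACACA window 2: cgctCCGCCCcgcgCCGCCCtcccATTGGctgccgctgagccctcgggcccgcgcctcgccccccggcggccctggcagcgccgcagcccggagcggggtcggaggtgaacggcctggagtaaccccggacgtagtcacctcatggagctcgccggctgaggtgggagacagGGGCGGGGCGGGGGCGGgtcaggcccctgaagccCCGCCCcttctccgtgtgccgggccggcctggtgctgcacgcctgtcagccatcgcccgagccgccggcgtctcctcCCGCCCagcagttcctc
ACACA window 3: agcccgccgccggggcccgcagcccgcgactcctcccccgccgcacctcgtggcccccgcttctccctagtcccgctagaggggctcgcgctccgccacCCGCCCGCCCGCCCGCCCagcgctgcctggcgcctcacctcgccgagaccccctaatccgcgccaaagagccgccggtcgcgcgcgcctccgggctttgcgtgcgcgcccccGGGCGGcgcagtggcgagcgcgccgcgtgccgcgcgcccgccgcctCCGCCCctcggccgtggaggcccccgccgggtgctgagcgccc
FADS1: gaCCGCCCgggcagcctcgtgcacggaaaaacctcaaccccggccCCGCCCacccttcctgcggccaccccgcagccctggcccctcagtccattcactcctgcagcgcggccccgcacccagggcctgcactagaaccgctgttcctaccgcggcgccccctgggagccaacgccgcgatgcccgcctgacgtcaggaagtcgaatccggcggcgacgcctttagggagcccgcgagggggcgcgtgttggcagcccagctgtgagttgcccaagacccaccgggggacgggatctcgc

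The SREBF1 window held 3 GC boxes and 0 NF-Y boxes. ACACA window 1 held 2 NF-Y boxes and 0 GC boxes, window 2 held 7 GC boxes and 1 NF-Y box, and window 3 held 6 GC boxes. Matches that shared bases were each counted, as in the longest run of capitals in ACACA windows 2 and 3. The counts there are not of separate sites. FADS1 had 2 GC boxes. The sterol regulatory element, searched as TCACNCCAC on both strands, was in 0 of the 13 windows that the table held for 9 of the 10 genes, ACLY and SCD included and FASN not. The E-box CACGTG, which reads the same on both strands, was also in 0. An NF-Y box was in 8 of the 13 windows (6 genes) and a GC box in 11 (9 genes). Over all 35116 windows of the table, 1.13% held the sterol element, 7.26% the E-box, 34.6% an NF-Y box and 45.0% a GC box. No match overlapped one of another motif. These are counts of letters in short windows, with no test.

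In resistant cells the transcription factor gene SREBF1 fell 5.85-fold and its target FASN, the fatty acid synthase, fell 2.87-fold. ACACA, whose enzyme makes the malonyl-CoA that FASN uses, had lower values in both resistant arrays in each of its 3 rows but did not pass. The desaturase and elongase genes FADS1, FADS2, FADS3 and ELOVL6 had differences above 0, the largest of them FADS1 at 1.63-fold, and did not pass. Over the 8 measured genes 2 fell, 0 rose and 6 did not pass limma's moderated test, taken with 1 row per gene and Benjamini-Hochberg adjustment over 15073 genes. Among all those genes 2.83% fell and 3.26% rose (6.10% either way). The median difference (resistant minus parental, log2 scale) was -0.08 over the 8 genes and -0.03 over all genes tested. When all 42152 rows were tested together, 0 rows passed (0%, smallest adjusted p = 0.0606), while 7896 rows (18.7%) had an unadjusted p under 0.05. With a prior variance that follows intensity (the intensity prior), which weighs the usual spread of rows of like brightness, 4 of the 10 rows were called, all lower, against 4.48% of all rows lower and 9.39% either way.

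SREBF1 was measured by the row of transcript NM_001005291. Its normalized intensity was 441 and 494 in the resistant arrays, against 2486 and 2993 in the parental arrays. Both resistant arrays lay far below both parental arrays, and the groups did not overlap. On the log2 scale the mean was 8.87 ± 0.12 in resistant and 11.41 ± 0.19 in parental cells (SD, n = 2 each). The difference was -2.55 ± 0.21 (SE), with a 95% interval of -3.13 to -1.96 (limma, adjusted p = 0.0209). It was thus larger than the gaps between replicates, which were 0.16 in the resistant and 0.27 in the parental pair. Among all rows the same difference had an adjusted p of 0.0723 in limma's fit. Probe positions were not used here, so which SREBP-1 isoforms this row reads is not known. In RNA from whole cultures, fewer cells that make a transcript and less of it per cell cannot be told apart.

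FASN carries all the activities that build palmitate on 1 polypeptide. It had 1265 and 1232 units of intensity in resistant cells and 3498 and 3674 in parental cells. The 2 arrays of each group were close to each other and the groups were well apart. The log2 mean was 10.29 ± 0.03 in resistant and 11.81 ± 0.05 in parental cells (SD, n = 2 each). FASN differed by -1.52 ± 0.18 on the log2 scale (95% interval -2.02 to -1.02, limma, adjusted p = 0.0346 over genes and 0.107 over rows).

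**Figure D1:**
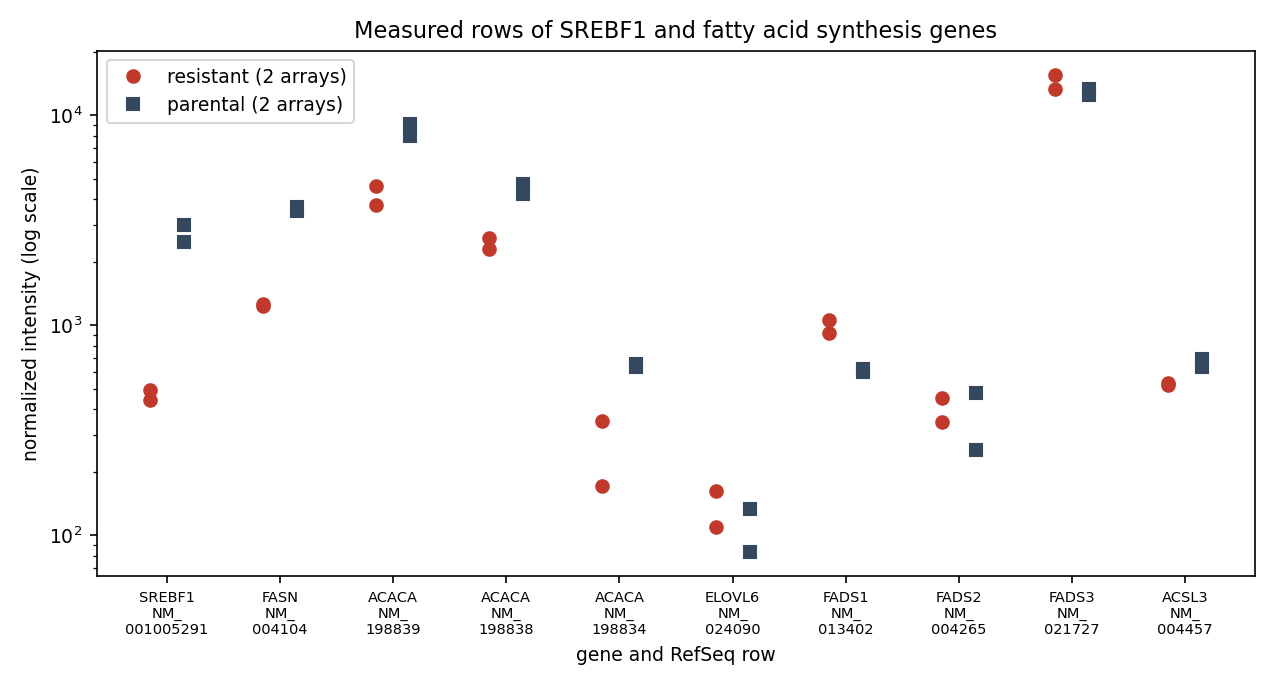
Normalized intensity (log axis) of the 10 measured rows, with resistant arrays as red circles left of parental arrays as dark squares, 2 arrays each. SREBF1 lies at 441 and 494 in resistant cells against 2486 and 2993 in parental cells, all 3 ACACA rows are lower in resistant cells, and FADS2, FADS3 and ELOVL6 overlap.

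ACACA encodes acetyl-CoA carboxylase 1, the committed step of fatty acid synthesis, and was the one measured gene here with several rows. Its brightest row, NM_198839, read 3739 and 4594 in resistant cells, against 8005 and 9129 in parental cells. That row stood for the gene and differed by -1.04 ± 0.22 on the log2 scale, with a 95% interval of -1.65 to -0.44 (limma, adjusted p = 0.0768). NM_198838 read 2600 and 2308 in resistant and 4204 and 4690 in parental cells, a difference of -0.86 ± 0.25. NM_198834 read 172 and 349 in resistant and 652 and 634 in parental cells, a difference of -1.39 ± 0.43. In all 3 rows the resistant arrays lay below the parental ones, yet the resistant pair of NM_198834 was 1.02 apart on the log2 scale. The rows did not pass over all rows (limma, adjusted p = 0.183, 0.211 and 0.231 in the order named). With the intensity prior ACACA was called at an adjusted p of 0.0018 over genes. That setting called 4 of the 8 genes, SREBF1, FASN and ACACA lower and FADS1 higher, and 21.5% of all genes (11.5% lower and 9.93% higher).

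FADS1, FADS2 and FADS3 are neighbouring genes on chromosome 11. FADS1 and FADS2 encode the delta-5 and delta-6 desaturases, which make polyunsaturated fatty acids, and FADS3 acts on sphingoid bases. FADS1 read 1064 and 924 in resistant cells, against 599.9 and 619 in parental cells. It was the only measured gene of the 8 in which both resistant arrays lay above both parental arrays. The log2 difference was 0.70 ± 0.19 (95% interval 0.17 to 1.24, limma, adjusted p = 0.117, and 0.0283 with the intensity prior).

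FADS2 read 449.7 and 348 in resistant cells and 254 and 478 in parental cells. The groups overlapped, and the parental pair was 0.91 apart on the log2 scale. FADS2 differed by 0.18 ± 0.39 (95% interval -0.92 to 1.28, adjusted p = 0.801). The sign was not settled, since the value was -0.27 without parental replicate 1. FADS3 read 15612 and 13336 in resistant and 13392 and 12547 in parental cells, which also overlap. Its difference was 0.15 ± 0.20, with a 95% interval of -0.40 to 0.70 (adjusted p = 0.658). FADS1 and FADS2 overlap at their starts in the RefSeq annotation, and the labelled cDNA carries both strands, so signal from shared sequence could not be assigned to 1 of them.

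ELOVL6, which lengthens palmitate to stearate, was dim: the rows of the array had a median between 141 and 149.9. It read 109.9 and 163 in resistant cells, against 83.2 and 133 in parental cells, and the groups overlapped. The log2 difference was 0.34 ± 0.36 (95% interval -0.67 to 1.36, limma, adjusted p = 0.592). Rows of like brightness had a median replicate gap of 0.44 in the resistant and 0.61 in the parental pair, so a small change in ELOVL6 was not detectable. ACSL3 couples fatty acids to CoA on the endoplasmic reticulum and lipid droplets. It read 534 and 522 in resistant cells and 631 and 691 in parental cells, which do not overlap. The difference of -0.32 ± 0.18 did not pass (95% interval -0.83 to 0.19, adjusted p = 0.337). Counted over the 8 genes, resistant arrays lay wholly below parental ones in 4 (SREBF1, FASN, ACACA and ACSL3) and wholly above in 1. Over all genes 31.0% lay wholly below and 27.9% wholly above.

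**Figure D2:**
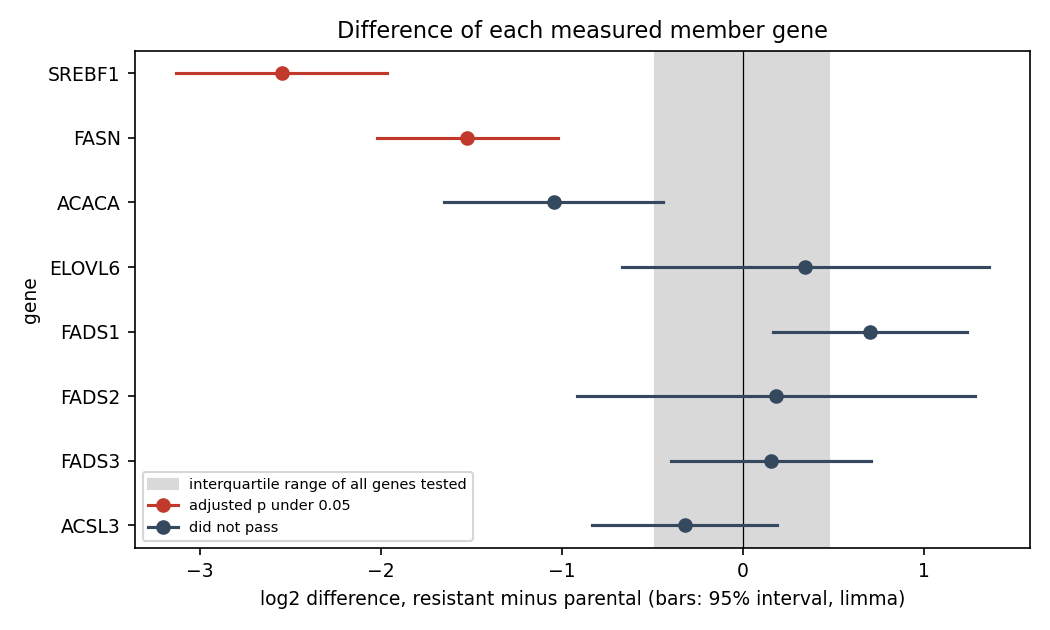
Log2 difference (resistant minus parental, horizontal axis) of each of the 8 measured genes with limma's 95% interval. The intervals of SREBF1 (-3.13 to -1.96) and FASN (-2.02 to -1.02) lie wholly outside the grey interquartile range of all genes (-0.49 to 0.48).

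Among genes that process or assist SREBP, INSIG2 rose and RXRA fell. Of 19 listed genes 16 were measured, of which 1 rose, 1 fell and 14 did not pass, with a median difference of -0.15. INSIG2, which retains the SREBP precursor in the endoplasmic reticulum, read 3747 and 3963 in resistant and 1436 and 1491 in parental cells. It rose by 1.40 ± 0.18 (limma, adjusted p = 0.0393). RXRA, the partner of the LXR receptors that activate SREBF1 transcription, read 1484 and 1576 in resistant and 4457 and 3899 in parental cells. It fell by 1.45 ± 0.19 on the log2 scale (limma, adjusted p = 0.0408). The coactivator gene PPARGC1B (-1.15 ± 0.20, adjusted p = 0.0599) and the E-box factor gene USF1 (-0.74 ± 0.21, adjusted p = 0.122) did not pass. The other row of USF1 differed by -0.34. SCAP, the SREBP escort, was chosen after its values were seen and read 2768 and 2685 in resistant and 1880 and 1893 in parental cells, and did not pass (adjusted p = 0.159). SREBF2 had no named row.

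Enzymes that supply acetyl-CoA, NADPH and malonyl-CoA did not pass in any of 9 measured genes of 13 listed, and their median difference was -0.30. IDH1, a cytosolic source of NADPH, read 2015 and 2093 in resistant and 4323 and 5067 in parental cells (-1.19 ± 0.19, limma, adjusted p = 0.0548). ACSS2, which makes acetyl-CoA from acetate, read 1422 and 1230.4 in resistant and 2741 and 2848 in parental cells (-1.08 ± 0.19, adjusted p = 0.0624). Both passed when all rows of a gene were averaged (limma, adjusted p = 0.0495 for IDH1 and 0.0498 for ACSS2). IDH1 has 1 row, so its own values were unchanged in that fit. MID1IP1, an activator of acetyl-CoA carboxylase, differed by -1.13 ± 0.25 (adjusted p = 0.0824), with its other row at -0.40. PGD, an NADPH source, differed by -0.33 ± 0.22 (adjusted p = 0.402).

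The other elongation and desaturation genes went both ways, and 0 of 15 measured genes passed. HACD2, a dehydratase of the elongation cycle, read 662 and 934 in resistant and 2032 and 2017 in parental cells (-1.37 ± 0.25, limma, adjusted p = 0.0648). Its relative HACD4 (-1.14 ± 0.21) and the electron donor gene CYB5A (-1.04 ± 0.21) had adjusted p-values of 0.0679 and 0.0754. The second row of CYB5A differed by -0.53. ELOVL7, another elongase, differed the other way by 0.91 ± 0.21 (adjusted p = 0.089).

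Genes that bind, import or activate fatty acids held 2 that fell and 1 that rose among 14 measured of 16 listed, with a median difference of -0.49. FABP5, the fatty acid binding protein of squamous epithelium, read 3569 and 3649.5 in resistant and 22415 and 20196 in parental cells. It fell by 2.56 ± 0.18 (limma, adjusted p = 0.0178). The transporter gene SLC27A4 fell by 1.43 ± 0.20 (adjusted p = 0.0435). ACSL5, another acyl-CoA synthetase, read 296 and 459 in resistant and 101 and 99.1 in parental cells and rose by 1.88 ± 0.29 (adjusted p = 0.0495). This call was lost when arrays were centred on their medians (adjusted p = 0.0511). FABP4 differed by -3.10 ± 0.52 (adjusted p = 0.0571), with the resistant arrays at 111 and 45.1.

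Genes of lipid storage and breakdown held 1 that rose, ACAA2. Of 16 measured genes of glycerolipid synthesis and lipid droplets 0 passed, and the median difference was 0.45. PNPLA2, the main triglyceride lipase, read 6474 and 6954 in resistant and 3071 and 2951 in parental cells (1.16 ± 0.18, limma, adjusted p = 0.0508). It passed when all rows of a gene were averaged (limma, adjusted p = 0.0457), although its own 1 row was unchanged in that fit. LPIN2 (1.56 ± 0.33), AGPAT2 (-1.18 ± 0.28) and LPIN1 (0.55 ± 0.18), which act in glycerolipid synthesis, had adjusted p-values of 0.0793, 0.0971 and 0.158. Of 18 measured genes of fatty acid oxidation, ACAA2, a mitochondrial thiolase, rose and 17 did not pass. ACAA2 read 573 and 556 in resistant and 180.4 and 192 in parental cells and rose by 1.60 ± 0.18 (adjusted p = 0.0317). The isomerase genes ECI1 and ECI2 differed by -0.97 ± 0.22 and -0.73 ± 0.18, and the import gene CPT1B by 0.86 ± 0.21 (adjusted p = 0.0869, 0.0968 and 0.0968). The 4 rows of CPT1B ran between 0.24 and 0.86.

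SREBP proteins also drive sterol genes, of which 10 of 12 listed were measured, 2 fell and 8 did not pass, with a median difference of -0.65. CYP51A1, a demethylase of cholesterol synthesis, read 492.6 and 404 in resistant and 1187 and 1294 in parental cells and fell by 1.47 ± 0.21 (limma, adjusted p = 0.0451). SQLE, the squalene epoxidase, differed by -1.24 ± 0.23 and did not pass (adjusted p = 0.0641). Over the 7 lists together 8 of 98 measured genes passed, 3 higher and 5 lower, beside 6.10% of all genes (3.26% higher and 2.83% lower). With the intensity prior the count was 36, 11 higher and 25 lower, beside 21.5% of all genes (9.93% higher and 11.5% lower). The counts of each list above stand against the same shares, and nothing particular to a list is read from them.

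**Figure D3:**
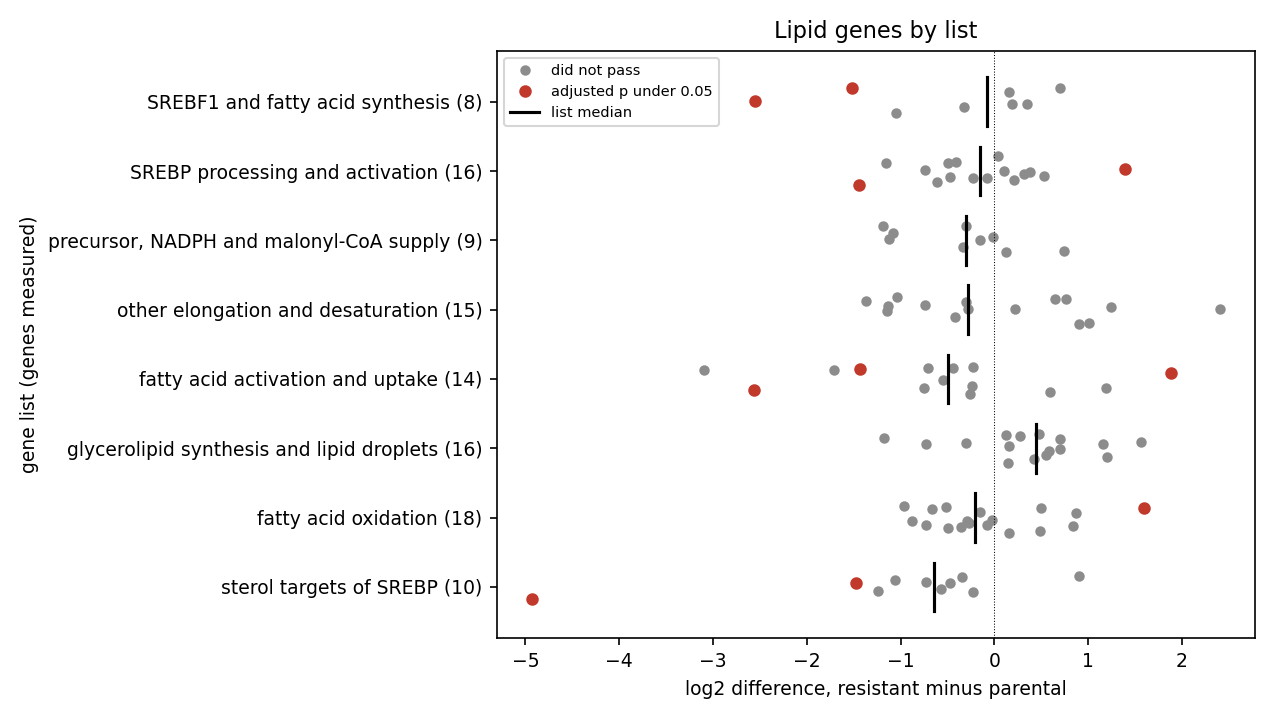
Log2 difference (resistant minus parental, horizontal axis) of every measured gene in the 8 lipid lists, spread vertically within a list for legibility. Red points passed limma's test over all genes, and black bars are list medians, which run from -0.65 for sterol targets to 0.45 for glycerolipid and droplet genes.

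The 5 genes whose 4 values, each centred on its own mean, were nearest to SREBF1 by Euclidean distance on the log2 scale were LYPD2, NOTCH3, ADAMDEC1, NXN and PHLDA3. Their distances ran from 0.07 to 0.16, against a median of 2.61 over the 15072 other genes. NOTCH3, a Notch receptor, read 1557 and 1794 in resistant and 9066 and 11312 in parental cells, a difference of -2.60 ± 0.22. LYPD2, a surface protein gene, read 47.0 and 56.0 in resistant and 279 and 328 in parental cells. NXN, a thioredoxin-like oxidoreductase gene, differed by -2.40 ± 0.22 and PHLDA3 by -2.43 ± 0.19. ADAMDEC1 is less certain, because its 2 rows differed by -2.47 and 0.34. These genes were picked for values like those of SREBF1, so their lower level in resistant cells is a description with no test, and the likeness covers 4 arrays only.

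On either side of SREBF1 on chromosome 17, the nearest measured protein-coding gene that does not overlap it also had lower values in resistant cells. Neither passed, and the comparison was chosen after the values were seen. Over all genes, 31.0% had both resistant arrays below both parental arrays. TOM1L2 lies 6525 bases away on one side. It read 1231 and 1381 in resistant and 2939 and 2855 in parental cells, a difference of -1.15 ± 0.19 (limma, adjusted p = 0.0538). PEMT, an enzyme of phosphatidylcholine synthesis, lies 219192 bases away on the other side. PEMT read 1549 and 1675 in resistant and 2815 and 3466 in parental cells. It differed by -0.96 ± 0.21 (adjusted p = 0.0841), and both were called with the intensity prior (adjusted p = 8.8e-04 and 0.0033). That setting called 11.5% of all genes lower, IDH1, ACSS2 and SQLE among them. The genes taken in the same way beside FASN, GPS1 (-0.07 ± 0.31) and CCDC57 (0.44 ± 0.20), did not pass, and CCDC57 had higher values in both resistant arrays. Beside ACACA, LHX1 overlapped (-0.26 ± 0.26) and TADA2A had higher values (0.37 ± 0.18). Beside ACSL3, the dim gene MOGAT1 had lower values (-0.90 ± 0.20) and KCNE4 overlapped. FEN1, beside the FADS genes, had lower values (-0.28 ± 0.21), while RAB3IL1 on their other side and both genes beside ELOVL6 overlapped. None of these passed.

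The epithelial and squamous identity of the line was checked with 9 marker genes. Of these 5 fell, 0 rose and 4 did not pass, and their summed intensity was 80620.4 to 82480.5 in resistant arrays against 192650.4 to 199218 in parental arrays. KRT14, a basal keratin, read 529.6 and 601 in resistant and 43329.7 and 44118 in parental cells. The log2 difference was -6.28 ± 0.19 for KRT14, -6.91 ± 0.26 for KRT6A, -6.52 ± 0.22 for the desmosome gene PKP1, -3.75 ± 0.28 for DSG3 and -2.77 ± 0.24 for TP63, which all fell (limma, adjusted p = 0.0165 to 0.0221). The other 4 did not pass and went both ways. EPCAM, an epithelial adhesion gene, read 7974 and 8175 in resistant and 3925 and 4673 in parental cells (0.91 ± 0.20, limma, adjusted p = 0.082, and 0.0022 with the intensity prior). CDH1, which encodes E-cadherin, read 7129 and 7636 in resistant and 4282 and 4434 in parental cells (0.76 ± 0.18, adjusted p = 0.0948, and 0.0035 with the intensity prior). KRT17, a keratin of stratified epithelium, differed by -0.79 ± 0.24 (adjusted p = 0.140). KRT5, a basal keratin, was bright in both groups, at 36686 and 42289 in resistant and 53292 and 53619.6 in parental cells. It differed by -0.44 ± 0.19 (limma, adjusted p = 0.236, and 0.0658 with the intensity prior). The part of these marker changes in the lower SREBF1 and FASN was not tested.

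Of 7 measured leukocyte markers 0 passed, with sums of 3537 to 3673 in resistant and 4043 to 4381 in parental arrays. ITGAM differed by -0.65 ± 0.27, LYZ by 0.99 ± 0.45 and CD68 by -0.23 ± 0.18, and PTPRC, the pan-leukocyte marker, read 65.5 and 20.4 in resistant and 38.9 and 25.3 in parental cells. Of 5 fibroblast markers COL1A1 rose by 3.23 ± 0.26 (limma, adjusted p = 0.0205). DCN (-0.57 ± 0.19), PDGFRB (0.96 ± 0.38) and COL3A1 (-0.54 ± 0.39) did not pass, and the list summed to 1696 to 2020.2 in resistant and 331 to 375 in parental arrays. COL1A1 alone carried that gap: the other 4 markers summed to 174.1 and 150.3 in resistant and 164.4 and 177.5 in parental arrays, which overlap. Of 5 measured adipocyte markers CEBPA, a factor shared with epithelia, fell by 3.37 ± 0.19 (adjusted p = 0.0165). CFD (-0.83 ± 0.44), PPARG (1.01 ± 0.84) and AQP7 (0.46 ± 0.48) did not pass, and the list summed to 1777 to 1872 in resistant and 4218 to 4876 in parental arrays. CEBPA carried that gap: the other 4 summed to 1483.7 and 1541.2 in resistant and 1789 and 872.6 in parental arrays, which overlap. The part of these markers in the results was not tested.

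**Figure D4:**
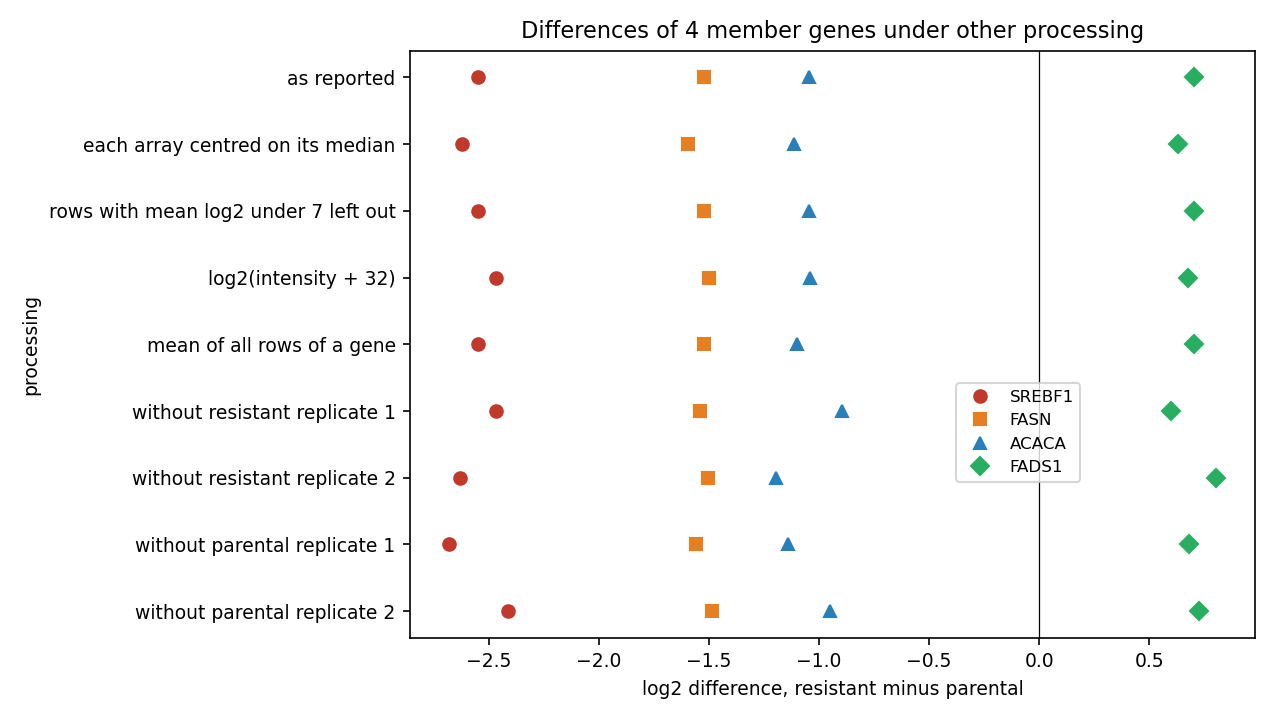
Log2 difference (resistant minus parental, horizontal axis) of SREBF1, FASN, ACACA and FADS1 as reported and under 8 other ways of processing (vertical axis). In each of these genes the groups did not overlap, so leaving out an array could not turn the sign, which was the same throughout. The filter on dim rows left each value unchanged. Without each array in turn SREBF1 lay between -2.68 and -2.41.

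Without any 1 of the 4 arrays, 0 of the 15073 genes passed limma's test, so every call above was lost. Those fits had only 1 degree of freedom for the spread and gave adjusted p-values of 0.0929 to 0.212 for SREBF1 and 0.105 to 0.227 for FASN. With the intensity prior both were called without each array in turn (adjusted p of at most 0.0013 and 0.0028), as was ACACA (at most 0.0198). FADS1 was not called in those 4 fits (adjusted p = 0.063 to 0.202).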

How the data were processed

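Total RNA of 2 resistant and 2 parental samples was turned into oligo-dT-primed double-stranded cDNA, labelled with Cy3 and hybridised to 1-colour NimbleGen arrays, per the labels' protocols. The deposited values are normalized intensity values on a linear scale, made by the authors with RMA per the submitters' processing notes. The RMA version, any row filter and the genome build are not given in the sources used here. Without detection calls, dim values carry no lower bound. The number of arrays limits precision.

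Intensities were taken to log2 without further normalization. Rows were named by the platform annotation (17899 rows) or through RefSeq accessions (674 rows), and the row with the highest mean stood for each of 15073 genes. The group difference was fitted per gene by limma 3.58.1 (lmFit and eBayes under R 4.3.3, no covariates), with Benjamini-Hochberg adjustment at 0.05 over genes, and again over rows. Differences are resistant minus parental with the moderated SE. "Rose" and "fell" refer to the test over genes. The script was tested on simulated data.

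The members, the lists and the tests were chosen with earlier results of these data known. Named genes were all members, up to 4 genes of each list by smallest p, and the 5 genes nearest to SREBF1. Some genes that this rule names are not reported here. SCAP, EPCAM, CDH1, KRT17, KRT5, PTPRC and the flanking genes were added after their values were seen. Alternatives were median centring, the intensity prior, a replicate block, a filter on dim rows, an added 32 before log2, averaging a gene's rows and leaving out each array.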

Additional observations from a re-analysis of the deposited data

How the results depend on the processing

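Over genes, the 919 calls became 3234 with the intensity prior, 2736 without rows of mean log2 under 7, 1768 with log2(intensity + 32). Over rows, the 0 calls became 3960, 3407 and 1116 under the same settings. The calls among the 8 measured genes went from 2 to 4 with the intensity prior and with the dim filter. The dim filter left out ELOVL6 and some pathway genes, so its counts are over fewer rows, genes, members and pathway genes. The calls among the 98 pathway genes went from 8 to 36, 32 and 20 under the first 3 settings. Without 1 array, 0 genes, rows, members or pathway genes passed in any of the 4 fits. With the intensity prior as well, the fits without resistant replicate 1, resistant replicate 2, parental replicate 1 and parental replicate 2, in that order, called 1899, 1970, 2797 and 2404 genes, 1544, 1563, 3541 and 2650 rows, and 21, 23, 31 and 25 pathway genes, with 3 members each. Same-numbered arrays deviated from their group means with r = 0.163, and with 2 pairs the numbers were not taken to pair the samples. With a replicate block 0 rows, 0 genes, 0 members and 0 pathway genes passed (SREBF1 adjusted p = 0.0818, FASN 0.100), and the block with the intensity prior called 3500 genes, 4884 rows, 4 members and 40 pathway genes. These fits have 1 residual degree of freedom. Median centring turned 492 higher and 427 lower genes into 458 and 507 and moved the median of all genes to -0.10, and SREBF1 and FASN still passed. FADS2 ran from -0.27 to 0.64 without 1 array and turned to -0.0017 without resistant replicate 1 and to -0.27 without parental replicate 1. PPARG ran from -0.052 (without resistant replicate 2) to 2.08 and AQP7 from -0.13 (without parental replicate 2) to 1.05. The cause was not tested for any of these. Among the 8 measured members FADS2 and ELOVL6 had the widest intervals in the test over genes.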
